A study of Mus musculus with 2 samples.

Results

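The stefins are small inhibitors of cysteine proteases, and 6 of their genes were followed here in neutrophils of mouse colon tumours: Stfa1, Stfa2, Stfa3, Stfa2l1 and Cstdc4, which belong to the stefin A family, and Cstb, which encodes stefin B. All 6 were found by symbol among the 55357 genes of the deposited matrices. They were selected on measured values of these same libraries, their levels across neutrophil states, other cell classes and libraries, so the levels below are a description and carry no test. The data are 2 single-cell RNA sequencing libraries of colon tumour tissue, 1 per genotype. The library labelled KO is from ECM1Flox/Flox mice with Villin-Cre, a Cre recombinase under a promoter active in intestinal epithelium. The library labelled WT is from ECM1Flox/Flox mice without Cre, so both carry the floxed Ecm1 alleles. The labels used here give neither the tumour model, nor the age of the animals, nor how many were pooled. Neutrophil-like cells numbered 200 of 4233 cells labelled KO and 2239 of 8262 labelled WT.

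Stefins are type 1 cystatins. They stay mainly inside the cell, carry no secretion signal and block the active site of papain-like cysteine proteases such as cathepsins B, H, L and S, which work mostly in lysosomes. Humans have a single stefin A gene, whereas mice carry a cluster of related copies, several of which are known to be transcribed in neutrophils and their precursors. Stefin B is made in most cell types, and its loss in humans causes a progressive myoclonus epilepsy.

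With 1 library per genotype there is no spread between animals. Every interval below is a 95% interval that covers counting error only. Levels are unique molecular identifiers (UMIs) summed over the cells of a group, divided by all UMIs of that group and multiplied by 1000000 (CPM). A ratio was counted as higher or lower where it passed 1.5-fold and rested on at least 50 summed UMIs. UMI counts are not corrected for transcript length, so levels are compared for 1 gene between groups of cells.

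Both libraries were checked against their labels. They held 75024663 (KO) and 59189995 (WT) UMIs and shared 17 cell barcodes. Ecm1 was not lower in epithelial-like cells labelled KO, at 40.7 CPM (39.1 to 42.4) against 34.1 (32.0 to 36.2), so the groups are named by their labels throughout. Xist, made from the inactive X chromosome, had 96659 UMIs (KO) and 5 (WT), and the Y-linked Ddx3y had 0 and 5419, so sex cannot be told apart from genotype.

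Sequences upstream of the 5 stefin A genes are shown first because these genes are related copies on 1 chromosome. In RefSeq (mouse assembly GRCm38.p6, which is older than the GRCm39 build of the matrices), all 5 lie on chromosome 16 among 11 listed stefin and cystatin-domain genes. Cstb lies alone on chromosome 10. The windows below run from 85 bases before to 25 bases after the annotated start of each gene, 5′ to 3′ on the strand of the gene. Capitals mark 3 runs of letters that are identical in all 5 windows. The entries are Stfa1 at chr16:36277063-36277172 on the plus strand, Stfa2 at chr16:36408339-36408448 on the minus strand, Stfa3 at chr16:36455368-36455477 on the minus strand, Stfa2l1 at chr16:36156726-36156835 on the plus strand and Cstdc4 at chr16:36184127-36184236 on the plus strand.
Stfa1: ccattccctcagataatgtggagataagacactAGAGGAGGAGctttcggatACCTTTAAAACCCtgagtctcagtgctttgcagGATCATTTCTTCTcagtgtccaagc
Stfa2: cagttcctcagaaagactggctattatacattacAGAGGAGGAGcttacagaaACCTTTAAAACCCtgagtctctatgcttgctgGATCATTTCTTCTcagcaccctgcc
Stfa3: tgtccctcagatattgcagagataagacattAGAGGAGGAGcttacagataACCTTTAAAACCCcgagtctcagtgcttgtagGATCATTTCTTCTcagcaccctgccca
Stfa2l1: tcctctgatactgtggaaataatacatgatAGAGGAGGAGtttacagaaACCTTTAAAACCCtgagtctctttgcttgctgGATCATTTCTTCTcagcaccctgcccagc
Cstdc4: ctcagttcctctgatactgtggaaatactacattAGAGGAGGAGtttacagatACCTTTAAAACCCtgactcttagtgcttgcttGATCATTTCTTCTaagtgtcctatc

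The 3 runs held in all 5 windows are agaggaggag, acctttaaaaccc and gatcatttcttct, none overlapping another. Searched on both strands, the first is in 337 of 32851 RefSeq promoter windows of 300 bases (1.03%), the second in 9 (0.0274%) and the third in 10 (0.0304%), the 5 genes included. Another shared run, cacactcatt, begins 96 to 103 bases before the start and is in 37 windows (0.113%). The runs are not particular to the 5 members. The same stretch of Cstdc5, a family gene that is not a member, held agaggaggag, acctttaaaaccc and cacactcatt, and ended on the first letters of gatcatttcttct. These are matches of letters and were not tested as binding sites. Over the whole windows the pair Stfa2 and Stfa2l1 was the most alike, at 90.5% identity. The transcripts are less alike. Stfa2 and Stfa2l1 share 69.8% of aligned letters, and Stfa3 and Stfa2l1 share 80.0%. In windows of 90 bases, the length used here for a read, 7.39% of the Stfa1 transcript was also in that of Cstdc5, a neighbouring family gene. The share was 2.09% for Stfa2, 2.42% for Stfa2l1, 2.32% for Cstdc4, and 0% for Stfa3 and Cstb. Stfa1 and Cstdc5 are 96.8% identical over their transcripts, so the split of reads between that pair is uncertain.

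Neutrophil-like cells fell into 3 clusters, built without the stefin and cystatin genes. The Mmp8 cluster, led by Retnlg, Wfdc21 and the calprotectin genes S100a8 and S100a9, held 71 cells labelled KO and 1270 labelled WT. The intermediate cluster, led by G0s2 and the calprotectin genes, held 113 and 748. The Ccl3 cluster, led by the chemokine gene Ccl3 and Il36g, held 16 and 221 cells, so its values labelled KO rest on few cells. Of 10 fixed neutrophil markers, 10 were detected in at least 10% of cells of the first pair of clusters in both libraries. In the Ccl3 cluster 10 were detected labelled KO and 9 labelled WT. Summed neutrophil markers were lower there, at 73258 CPM labelled WT against 216524 in the intermediate and 236185 in the Mmp8 cluster. Ly6g, a neutrophil surface marker, stood at 87.8 CPM in the Ccl3 cluster labelled WT against 275.9 and 497, and at 558 labelled KO against 177 and 624. The Mmp8 cluster was 35.5% of neutrophil-like cells labelled KO (28.9 to 42.6) and 56.7% of those labelled WT (54.6 to 58.8).

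Stefin A transcripts were found mainly in neutrophil-like cells in both libraries, and Stfa2l1 and Cstdc4 made up nearly all of them. Neutrophil-like cells held 8.60% of all UMIs labelled WT, but 95.1% of the Stfa2l1 UMIs, 94.5% of Cstdc4, 97.8% of Stfa1, 89.2% of Stfa2 and 81.8% of Stfa3. In the library labelled KO they held 0.868% of all UMIs, and 95.6%, 93.9%, 97.5%, 100% and 100% of the same genes. Cstb was spread over the tissue: neutrophil-like cells held 14.6% of its UMIs labelled WT and 1.44% labelled KO. Of the summed stefin A UMIs labelled WT, Cstdc4 gave 57.1%, Stfa2l1 37.0%, Stfa1 3.85%, Stfa2 1.75% and Stfa3 0.286%. The corresponding shares labelled KO were 46.0%, 46.0%, 2.84%, 4.22% and 0.946%. These are shares of counts, and the annotated Cstdc4 transcript, at 1859 bases, is longer than that of Stfa2l1, at 419.

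Stfa2l1, a stefin A family copy, stood at 776 CPM (751 to 803; 3499 UMIs) in neutrophil-like cells labelled WT and at 1040.1 (961 to 1124; 632 UMIs) in those labelled KO. Its level was alike in the Mmp8 and intermediate clusters, at 807 and 811 CPM labelled WT and 1089 and 1079.8 labelled KO. It was lower in the Ccl3 cluster, at 369.5 CPM (307 to 441) labelled WT and 197 (72.3 to 429; 6 UMIs) labelled KO. Cstdc4, a cystatin-domain gene of the same family, stood at 1197 CPM (1165 to 1229; 5394 UMIs) labelled WT and 1040.1 (961 to 1124; 632 UMIs) labelled KO. It differed little between the clusters labelled WT, at 1233, 1169 and 993 CPM in the Mmp8, intermediate and Ccl3 clusters. Labelled KO it stood at 666 CPM (575 to 768) in the Mmp8 cluster, 1455 (1320 to 1599) in the intermediate cluster and 525 (300.2 to 853) in the Ccl3 cluster. Labelled KO the intermediate cluster was thus above its level labelled WT, and the Mmp8 and Ccl3 clusters below.

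Stfa1, Stfa2 and Stfa3, the other stefin A copies, were scarce. Stfa1 stood at 80.8 CPM (72.7 to 89.5; 364 UMIs) labelled WT and 64.2 (45.6 to 87.7; 39 UMIs) labelled KO. In the Ccl3 cluster Stfa1 had 2 UMIs labelled WT (6.06 CPM) and 0 labelled KO, against 84.1 and 92.2 CPM in the other 2 clusters labelled WT. Stfa2 stood at 36.6 CPM (31.2 to 42.6) labelled WT and 95.4 (72.5 to 123; 58 UMIs) labelled KO. It was higher in the Mmp8 cluster, at 48.4 CPM labelled WT and 130.4 labelled KO, than in the intermediate cluster, at 20.4 and 68.1. The Ccl3 cluster held 0 Stfa2 UMIs labelled WT, read here as up to 3 UMIs or 9.09 CPM, and 1 labelled KO. Stfa3 had 27 UMIs labelled WT, 5.99 CPM (3.95 to 8.72), and 13 labelled KO, 21.4 CPM (11.4 to 36.6), all 13 in the Mmp8 cluster.

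**Figure D1:**
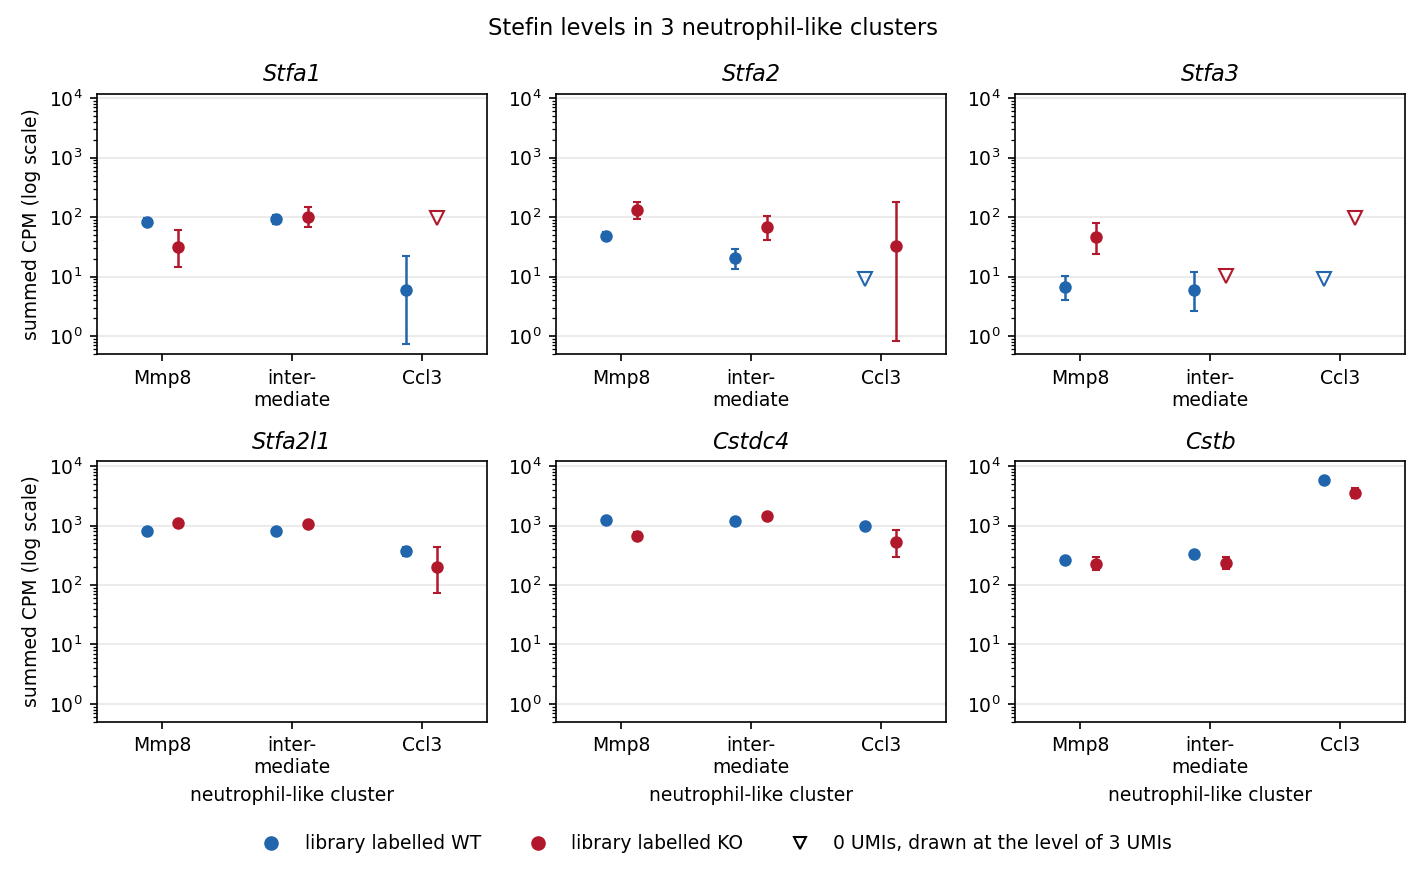
Level of each stefin gene in 3 neutrophil-like clusters. The x axis gives the cluster, the y axis summed CPM on a log scale, points are 1 library each (blue WT, red KO), bars are exact Poisson 95% intervals, and open triangles mark 0 UMIs drawn at the level of 3 UMIs. Cstb rises to 5885 and 3513 CPM in the Ccl3 cluster, where Stfa2l1 is lowest, at 369.5 and 197.

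Few cells carried most of the Stfa1, Stfa2 and Stfa3 counts in the library labelled KO, and a smaller share of the others. The 5 richest of its 200 neutrophil-like cells held 26.0% of its stefin A UMIs, and 1 cell alone held 92 UMIs. The 5 richest of 2239 labelled WT held 3.58%. As 5 cells are a larger part of the smaller group, these shares do not compare concentration between the libraries. Only 6 cells labelled KO had a Stfa1 UMI, 7 a Stfa2 UMI and 3 a Stfa3 UMI. For Stfa2 labelled KO, 1 cell held 33 of the 58 UMIs and 5 cells held 96.6%. For Stfa1 labelled KO, 5 cells held 92.3%. Cstdc4 was less concentrated, at 39.9%, and Stfa2l1 least, at 27.8%. The same shares labelled WT ran from 3.89% for Stfa2l1 to 40.7% for Stfa3.

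Stefin A was found in about every other neutrophil-like cell and was abundant in some of them. A stefin A UMI was present in 50.2% of neutrophil-like cells labelled WT and 48.0% labelled KO, at median depths of 1912 and 2848 UMIs. In T-like cells, taken as cells that should lack it, the shares were 0.804% and 0% at median depths of 2098 and 2969.5 UMIs. With every cell thinned to 1000 UMIs, and 105 and 5 shallower cells left out, the neutrophil-like shares were 45.03% (42.9 to 47.2) and 42.6% (35.5 to 49.8). Of these thinned cells labelled WT, 55.0% had 0 stefin A UMIs, 11.2% had 1, and 20.1% had 4 or more. The split labelled KO was 57.4%, 8.21% and 19.5%. The share with 4 or more was close in the Mmp8 and intermediate clusters, at 20.7% and 20.7% labelled WT and 19.7% and 21.1% labelled KO. It was 14.3% in the Ccl3 cluster labelled WT.

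**Figure D2:**
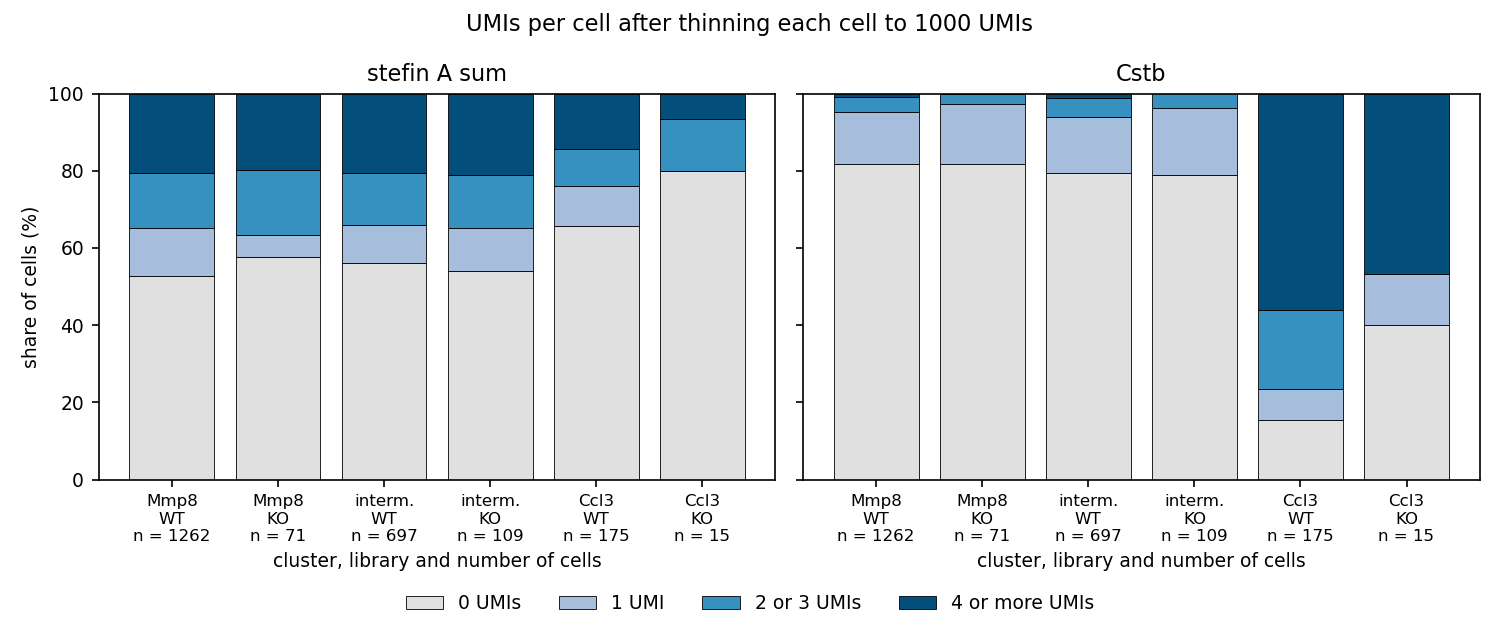
Distribution of stefin A UMIs (left) and Cstb UMIs (right) over neutrophil-like cells thinned to 1000 UMIs. The x axis gives cluster, library and number of cells, the y axis the share of cells in percent, and shades the number of UMIs. Cells with 4 or more Cstb UMIs are 56.0% of the Ccl3 cluster labelled WT and at most 1.15% of either other cluster.

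The stefin A genes were detected in overlapping sets of cells. Of 2239 neutrophil-like cells labelled WT, 818 had a Stfa2l1 UMI, 719 a Cstdc4 UMI and 444 both, which is 54.3% of the former and 61.8% of the latter. Labelled KO the counts were 75, 56 and 39 of 200 cells, 52.0% and 69.6%. Among the 51 cells labelled WT with a Stfa2 UMI, 36 had Stfa2l1 and 35 had Cstdc4. Among the 83 with a Stfa1 UMI, 47 had Stfa2l1 and 52 had Cstdc4. No cell in either library held all 5 genes, and 7 cells labelled WT and 1 labelled KO held 4. Deeper cells show more genes, so these overlaps are descriptions.

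Cstb behaved differently from the stefin A genes and was high in a single neutrophil cluster. In the Ccl3 cluster it stood at 5885 CPM (5626 to 6153; 1943 UMIs) labelled WT and 3513 (2879 to 4245; 107 UMIs) labelled KO. The Mmp8 cluster held 264 CPM (245 to 283) and 229 (177 to 292), and the intermediate cluster 329.6 (299 to 362) and 238 (186 to 301). Against the other neutrophil-like cells the Ccl3 cluster was 20.7-fold higher labelled WT (19.2 to 22.2) and 15.0-fold labelled KO (11.5 to 19.5). The Ccl3 cluster held 7.33% of neutrophil-like UMIs labelled WT but 62.0% of the Cstb UMIs, and 5.01% and 44.2% labelled KO. After thinning, 84.6% of its cells labelled WT had a Cstb UMI (78.4 to 89.6), against 18.2% in the Mmp8 cluster, 20.5% in the intermediate cluster and 12.2% in T-like cells.

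The stefin A sum moved the other way in the Ccl3 cluster, though less. It stood at 1369 CPM (1246 to 1501) there labelled WT against 2154 in the other neutrophil-like cells, a ratio of 0.636 (0.577 to 0.699). Labelled KO the values were 755 and 2341 CPM, a ratio of 0.323 (0.204 to 0.486), from 23 UMIs. The ratio was 0.948 with cells kept under 10% mitochondrial UMIs and all clustered again, so the cluster could hold other cells. Neutrophil-like cells of both libraries then numbered 2420, against 2439. The ratios of single genes labelled WT were 0.0699 for Stfa1 (0.00843 to 0.254), 0.457 for Stfa2l1 (0.378 to 0.548) and 0.819 for Cstdc4 (0.730 to 0.916). Over alternative settings Stfa1 ran from 0.0663 to 0.789, where its call was lost. Stfa2l1 ran from 0.232 to 0.636 and Cstdc4 from 0.701 to 1.04. Of the 5 stefins with enough UMIs, Cstb was higher and Stfa1, Stfa2 and Stfa2l1 were lower. Among all 4466 genes compared in this way, 36.1% were higher and 29.5% lower past 1.5-fold. Labelled KO, Cstb was higher and Stfa2, Stfa2l1 and Cstdc4 were lower of 4 measured, beside 22.1% higher and 34.4% lower of 1179 genes. The Stfa2 ratio rested on 1 UMI in the cluster and reversed to 1.14 without the 5 cells richest in stefin A, and that of Cstdc4 reversed to 1.201 under 10% mitochondrial UMIs. Cstb and stefin A transcripts were nevertheless found in the same cells: 47 of 175 thinned cells of the Ccl3 cluster labelled WT had both, 101 had Cstb alone and 13 stefin A alone.

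Markers of other cell types were set beside this result. Of 12 monocyte/macrophage markers, 2 were detected in at least 10% of cells of the Ccl3 cluster labelled WT, their summed level was 548 CPM, and Mrc1 and Fcgr1 were at 0. The sums were 517.5 CPM in the Mmp8 cluster and 674 in the intermediate cluster labelled WT, with the Ccl3 cluster between the others. Single markers moved within that sum: of 8 measured labelled WT, Cd68, a lysosomal membrane protein of phagocytes, was higher and Adgre1, Csf1r and Ly6c2 were lower. Cd68 stood at 294 CPM (238 to 358) in the Ccl3 cluster labelled WT against 49.1 and 51.4 in the Mmp8 and intermediate clusters, and at 263 against 35.3 and 74.9 labelled KO. Labelled KO they were 472, 576 and 427 CPM in the Mmp8, intermediate and Ccl3 clusters, with 8 markers at 0 in the last. Of 10 epithelial markers, 2 were detected in the Ccl3 cluster labelled WT, at 445 CPM in sum against 274 and 348. Erythroid markers summed to 3535 CPM in the Ccl3 cluster labelled WT against 16.8 and 8.32, with 1163 of the 1167 UMIs in 1 cell. T-cell markers summed to 115 CPM there against 16.1 and 19.7, from 11 cells. Without the cells holding a UMI of either list, Cstb stood at 5835 CPM (5567 to 6113; 205 cells) in the Ccl3 cluster labelled WT and 2924 (2308 to 3655; 14 cells) labelled KO. In cells with no UMI of any of the 12 macrophage markers, Cstb stood at 5466 CPM (5122 to 5826; 122 cells) in the Ccl3 cluster labelled WT and was 18.2-fold higher than in such cells of the other clusters. In the cells of that cluster with such a UMI, Cstb stood higher, at 6343 CPM (5956 to 6749; 99 cells). In cells with a Csf3r UMI, the G-CSF receptor of neutrophils, it stood at 3852 CPM (3539 to 4186; 82 cells), 14.4-fold higher, and in those without at 7469 CPM. Labelled KO it stood at 1684 CPM (1119 to 2433; 10 cells) without a macrophage marker UMI and at 5713 (4523 to 7120; 6 cells) with one. The level was thus higher with these markers in both libraries. With a Csf3r UMI it stood at 1042 CPM (538 to 1820; 5 cells) labelled KO and without one at 5015, and the ratio to the other clusters was 4.38 with a Csf3r UMI and 9.04 without macrophage marker UMIs. Median depth was 1386 UMIs in the Ccl3 cluster labelled WT against 2084 and 1767, and the median mitochondrial share was 0.526% against 0.398% and 0.420%. The part of depth in the result was not tested.

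Cysteine cathepsins and legumain were compared next. They formed a list of 12 genes, among which Ctsa, a serine carboxypeptidase, was filed although it is no cysteine protease. Legumain is not papain-like, so the list is not one of stefin targets only. Of 8 measured in the Ccl3 cluster labelled WT, 5 were higher and none lower, beside 36.1% higher and 29.5% lower of 4466 genes. The median of the 8 log2 ratios was 1.497, and 0.13 over all genes. Labelled KO, 2 of 4 measured were higher and none lower, beside 22.1% higher and 34.4% lower of 1179 genes. The clusters were built from these genes too, so this is a description. Ctsb, which encodes cathepsin B, a main target of stefins, stood at 2708 CPM in the Ccl3 cluster labelled WT, against 133 in the Mmp8 and 172 in the intermediate cluster. Labelled KO Ctsb stood at 1806, 141 and 184 CPM in the same order. The ratio of Ctsb to the other neutrophil-like cells was 18.6 (16.8 to 20.7) labelled WT and 11.1 (7.80 to 15.6) labelled KO. Ctsz, a lysosomal carboxypeptidase, had ratios of 9.29 (7.78 to 11.1) and 5.05 (2.92 to 8.36). Ctsl, cathepsin L, had 2.80 (2.19 to 3.56) labelled WT and 1.39 (0.494 to 3.15; 6 UMIs) labelled KO. Legumain (Lgmn) had 2.84 (1.33 to 5.54) and Ctsa 2.92 (1.89 to 4.37) labelled WT. Ctsc, which activates granule serine proteases, stood at 36.3 CPM against 45.7 in the other cells labelled WT, Ctsh at 54.5 against 40.7 and Ctss at 42.4 against 39.0, all within 1.5-fold.

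Other proteases and inhibitors differed among themselves. Ctsd, an aspartic protease that stefins do not inhibit, was 5.47-fold higher in the Ccl3 cluster labelled WT (5.03 to 5.94) and 4.17-fold labelled KO (3.17 to 5.42). Of 6 measured serine protease inhibitors labelled WT, 1 was higher and 4 were lower, beside 36.1% and 29.5% of all genes. The higher one was Slpi, an inhibitor of neutrophil elastase, at 9302 CPM against 3211, a ratio of 2.90. Wfdc17 and Wfdc21, of the same WAP domain family, were lower, at 2417 CPM against 9070.4 and at 485 against 3478. Cst3, the secreted cystatin C, was lower too, at 118 CPM against 275.3, a ratio of 0.429 (0.304 to 0.590). The neutrophil serine proteases were at or near 0 in neutrophil-like cells: Elane and Ctsg had 0 UMIs in both libraries, Mpo 0 (KO) and 1 (WT), and Prtn3 3 and 6.

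**Figure D3:**
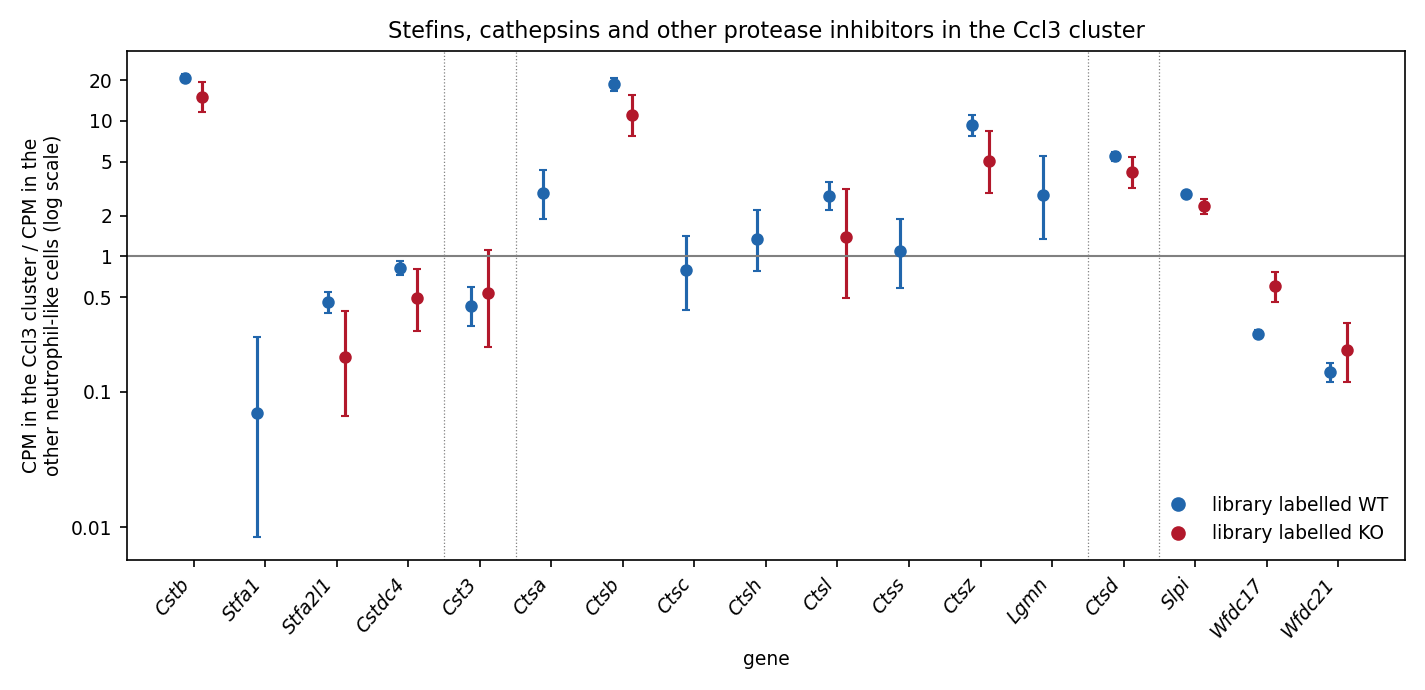
Ratio of CPM in the Ccl3 cluster to CPM in the other neutrophil-like cells. The x axis gives stefins, cystatin C, the list with cysteine cathepsins, Ctsd and serine protease inhibitors, with dotted lines between them; the y axis is the ratio on a log scale. Points are libraries with at least 50 summed UMIs, bars 95% counting intervals; Stfa2, with 0 UMIs in the cluster labelled WT, and Stfa3 are not drawn. Cstb and Ctsb have the highest ratios, 20.7 and 18.6 labelled WT.

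Likeness between genes was measured over single cells. Over 2134 neutrophil-like cells labelled WT thinned to 1000 UMIs, the genes most like Cstb were Ftl1, ferritin light chain (Pearson r 0.579), Ctsb (0.529), Bri3 (0.497), Esd (0.488) and Hmox1, haem oxygenase (0.465). Over 195 cells labelled KO the same genes had r from 0.356 to 0.510. The lowest were S100a9 (-0.574) and Tmsb4x (-0.506). These r were taken over all neutrophil-like clusters together. Cstb and Ctsb were both higher in the Ccl3 cluster, so the r do not describe likeness within a cluster. The highest r of another gene with the stefin A sum was 0.147, for S100a8, which is no finding in such sparse counts. Over 23 class and library groups, log2(CPM + 10) of the stefin A sum was most like Cxcr2 (r 0.982), Il36g and Mirt2 (0.973), and Mrgpra2b and Retnlg (0.971). The sum stood at 2097 and 2261 CPM in the neutrophil-like groups and at most at 26.3 in any other. Any gene largely confined to neutrophil-like cells thus has r near 1, and these r do not describe likeness within neutrophil-like cells. Cstb was most like Atp6v0c, a subunit of the lysosomal proton pump (0.946), Fth1 (0.937), Sdcbp (0.925), Rab32 (0.907) and Nfe2l2 (0.903). Cells share a library and groups share a library total, so these are descriptions.

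Outside neutrophil-like cells stefin A was scarce, and it was set beside the calprotectin transcripts. The sum stood at 11.1 CPM over all other cells labelled WT and 1.02 labelled KO, against 2097 and 2261 in neutrophil-like cells. Labelled WT the next classes were an unnamed cluster led by Mcpt2 (23.6 CPM), conventional dendritic-like cells (22.7) and monocyte/macrophage-like cells (16.6), with overlapping intervals between neighbours. Labelled KO the next was B-like cells, with 9 UMIs of Stfa2l1 (26.3 CPM, 12.0 to 49.9). Per 1000 UMIs of S100a8 and S100a9 together, the stefin A sum was 11.4 (11.2 to 11.6) in neutrophil-like cells labelled WT and 12.2 (11.2 to 13.3) in all other cells. Epithelial-like cells were close to it at 12.1 (10.7 to 13.6). Monocyte/macrophage-like cells were slightly above the neutrophil value at 13.9 (11.7 to 16.4), conventional dendritic-like cells above it at 20.4 (15.5 to 26.3) and plasma-like cells below it at 3.38 (1.74 to 5.90). Labelled KO the values were 12.4 (11.7 to 13.0) in neutrophil-like cells and 6.79 (5.30 to 8.56) in all other cells. The other cells labelled KO thus lay below the neutrophil ratio, and free neutrophil RNA as their source was not tested.

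Cstb was present in every class of at least 50 cells, with its highest level outside neutrophils in monocyte/macrophage-like cells, at 1180.2 CPM (1157 to 1203) labelled WT and 938 (908 to 968) labelled KO. Neutrophil-like cells came next in both libraries, at 695 and 398 CPM, and neither neighbour in that order overlapped them. The Mmp8 and intermediate clusters alone did not hold that place. Labelled WT they stood at 264 and 329.6 CPM, below conventional dendritic-like cells at 381. Labelled KO they stood at 229 and 238, beside fibroblast-like cells at 256 (231 to 283), with overlapping intervals. Among classes under 50 cells, the 45 conventional dendritic-like cells labelled KO stood at 394 CPM (329.5 to 467), which overlaps the value of all neutrophil-like cells. The lowest classes were B-like cells labelled WT, at 71.1 CPM, and plasma-like cells labelled KO, at 63.0. Epithelial-like cells stood at 215 and 198 CPM. Among the monocyte/macrophage-like clusters, the one led by Chil3 held 1402 CPM labelled WT and 1383 labelled KO, and the one led by Apoe and the C1q genes held 956 and 665. The Ccl3 cluster of neutrophil-like cells lay above all of these. Per 1000 UMIs of S100a8 and S100a9, Cstb was 3.77 in neutrophil-like cells labelled WT and 424 in all other cells, so it did not follow the calprotectin transcripts.

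**Figure D4:**
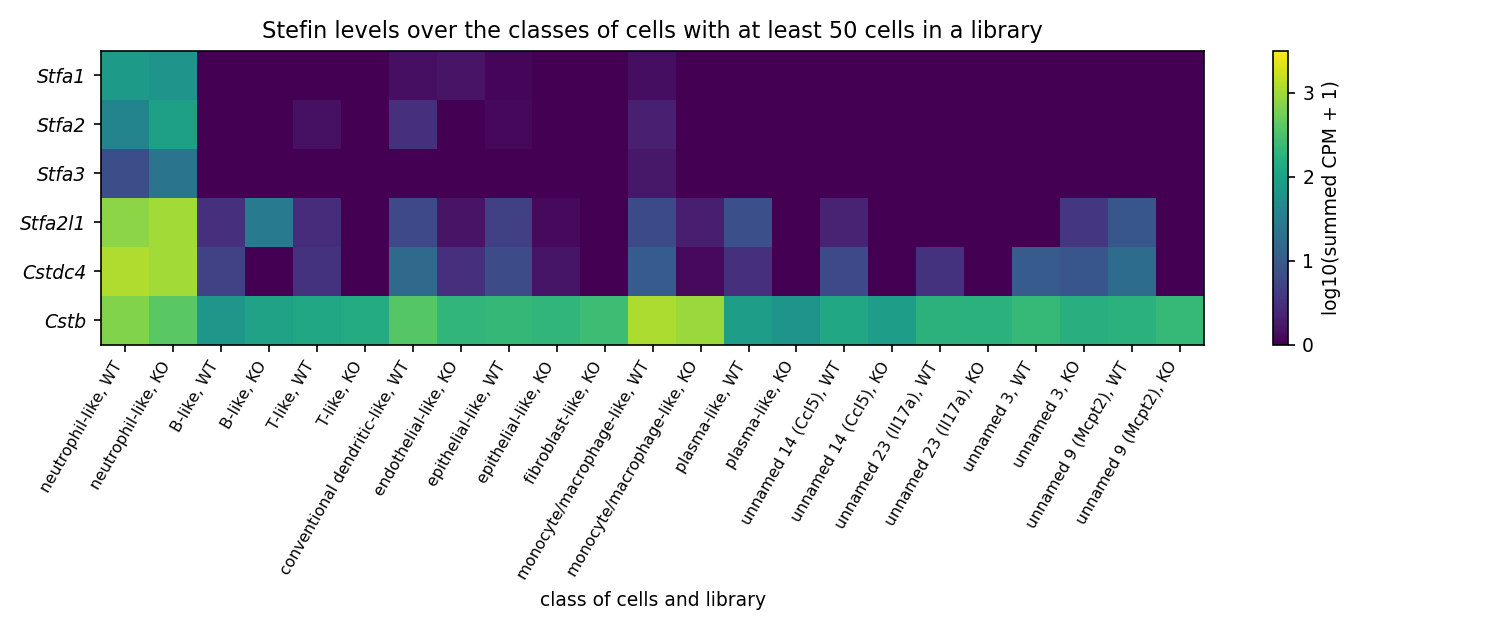
Level of each stefin gene over classes of at least 50 cells. Columns are classes in each library, rows genes, and colour is log10(summed CPM + 1). The 5 stefin A rows are bright in the 2 neutrophil-like columns, and Cstb is brightest in monocyte/macrophage-like cells, at 1180.2 and 938 CPM.

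Other genes listed with the stefin A members were seen in part. Of 16 other names on the list, 9 were found in the matrices. Some names are synonyms, such as Gm5483 for the member Cstdc4, Gm5416 for Csta3 and 2010005H15Rik for Csta2. Cstdc1 and Cstdc2 lie on chromosome 2 and Cstdc7 on chromosome 18. These numbers are thus no count of neighbouring genes. Cstdc5, Csta1, Csta2 and Csta3 lie on chromosome 16. Cstdc5 had 152 UMIs in neutrophil-like cells labelled WT (33.7 CPM) and 29 labelled KO (47.7 CPM, all in 4 cells). Csta3 had 60 and 6 UMIs there and 0 in all other cells of both libraries. Csta2 had 34 and 1 UMIs there and 44 and 8 in other cells. Csta1 was epithelial instead, with 372 of its UMIs in epithelial-like cells labelled WT (12.8 CPM) and 2 in neutrophil-like cells.

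The libraries were then compared within neutrophil-like cells. The stefin A sum was alike, at 2261 CPM labelled KO and 2097 labelled WT, a ratio of 1.08 (1.02 to 1.14). Cstb was lower labelled KO, with 398 CPM (349.7 to 452) set against 695 (671 to 719.7) and a ratio of 0.573 (0.501 to 0.653). Stfa2 was higher labelled KO, 2.61-fold (1.90 to 3.54). Stfa2l1 at 1.34-fold (1.23 to 1.46), Cstdc4 at 0.869 (0.799 to 0.944) and Stfa1 at 0.795 (0.556 to 1.11) stayed within 1.5-fold, and Stfa3 had too few UMIs to call. Of 4749 genes compared, 13.5% were higher and 28.4% lower labelled KO, with a median log2 ratio of -0.16, so 1 higher and 1 lower of 5 stefins is near that background.

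These differences moved when clusters or a few cells were left out. Without the Ccl3 cluster, which was 8.00% of neutrophil-like cells labelled KO and 9.87% labelled WT, the Cstb ratio was 0.822 (0.682 to 0.982), inside the 1.5-fold limit. Within clusters it was 0.869 (0.664 to 1.12) in the Mmp8, 0.723 (0.554 to 0.933) in the intermediate and 0.597 (0.487 to 0.725) in the Ccl3 cluster. With the 5 stefin A-richest cells of either library removed, the Stfa2 ratio turned to 0.812 (0.461 to 1.34) and that of the stefin A sum to 0.853 (0.799 to 0.910). These cells were chosen on the value compared, and 5 are a larger part of 200 cells labelled KO than of 2239 labelled WT. The removal thus favoured a lower ratio, and these 2 values do not decide whether the libraries differ. Ngp, Ltf and Camp, which encode granule proteins of maturing neutrophils, were higher labelled KO as well, at 2736, 416 and 1072 CPM in the Mmp8 cluster against 157, 5.96 and 4.56. Of the Camp UMIs labelled KO, 5 cells held 92.1%, and without the 5 cells richest in the 3 genes the stefin A ratio was 1.12. Epithelial markers in neutrophil-like cells summed to 457 CPM labelled KO and 308 labelled WT, with 6 and 1 of 10 detected, and their part in the result was not tested.

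**Figure D5:**
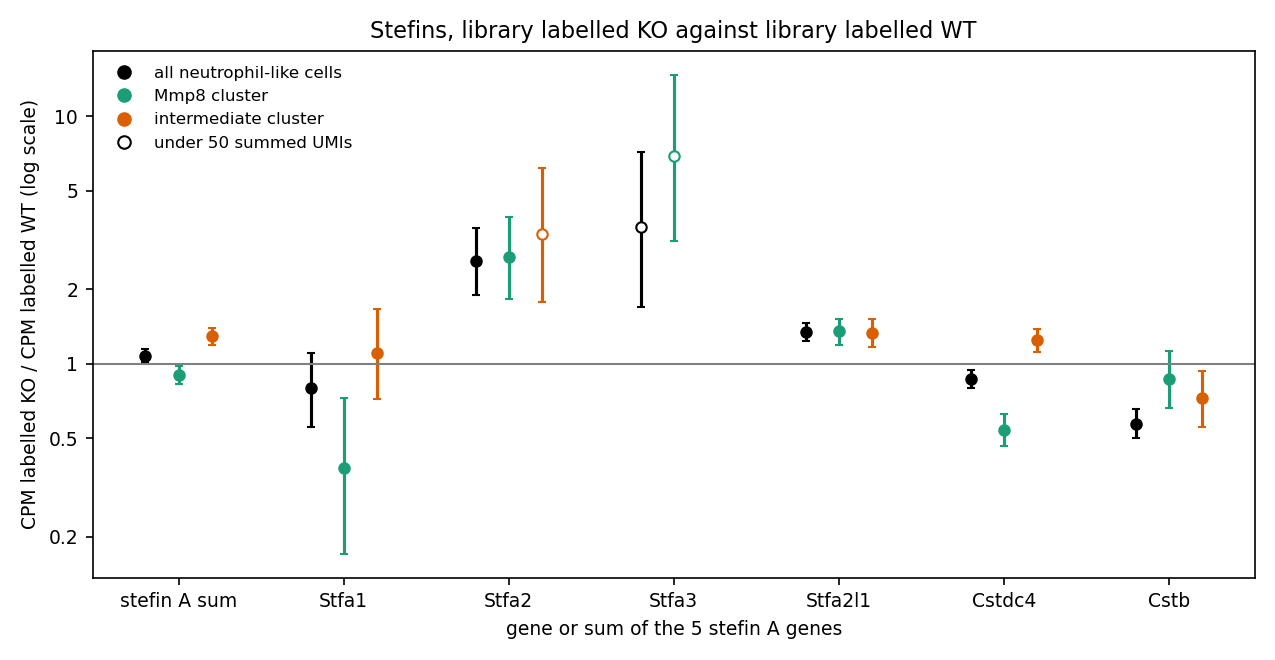
Ratio of CPM labelled KO to CPM labelled WT for the stefin A sum and each stefin gene. The y axis is a log scale, black points are all neutrophil-like cells, green the Mmp8 and orange the intermediate cluster, bars are 95% counting intervals, and open points rest on under 50 UMIs. Cstdc4 lies at 0.540 in the Mmp8 and 1.24 in the intermediate cluster, on either side of 1.

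Between the 2 largest clusters the stefin A sum did not differ past 1.5-fold in either library, while Cstdc4 labelled KO was lower in the Mmp8 cluster, at a ratio of 0.458 (0.384 to 0.545). That call was lost, at 0.797, with neutrophil-like cells clustered alone. It was also lost, at 0.787, with at least 1000 UMIs per cell, where the remaining cells were all clustered again. Of the Cstdc4 UMIs of the Mmp8 cluster labelled KO, 5 cells held 59.8%. The ratio of the Mmp8 to the intermediate cluster was 1.04 (0.993 to 1.09) for the stefin A sum labelled WT and 0.726 (0.650 to 0.810) labelled KO. Over 7 alternatives the value labelled KO ran from 0.594, past the 1.5-fold limit, to 0.824. For Cstb the ratio was 0.801 (0.711 to 0.903) labelled WT and 0.961 (0.675 to 1.37) labelled KO. The former moved to 0.366 with at least 1000 UMIs per cell and to 1.16 with neutrophil-like cells clustered alone. Stfa2 was higher in the Mmp8 cluster, 2.37-fold labelled WT (1.56 to 3.72) and 1.92-fold labelled KO (1.08 to 3.48), the latter without its richest cells reversing to 0.343. The ratio labelled WT stayed above 1 over 7 alternatives, at 1.26 to 3.11, and lost its call at the lowest value. Labelled WT, 4.10% of 4169 genes were higher and 7.92% lower in the Mmp8 cluster, and 1 of 5 measured stefins was higher. Ngp was higher there as well, and its part in the Stfa2 result was not tested: it stood at 157 CPM in the Mmp8 and 25.7 in the intermediate cluster labelled WT.

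Genes of the cathepsin and legumain list were mostly within 1.5-fold between the libraries. Of 8 measured genes of that list, 2 were higher labelled KO and none lower, beside 13.5% higher and 28.4% lower of 4749 genes. The median of the 8 log2 ratios was 0.36, and -0.16 over all genes. The higher ones were Ctsc, at 82.3 CPM against 45.04, and Ctsh, at 74.1 against 41.7. Ctsb stood at 245 CPM labelled KO and 333 labelled WT, a ratio of 0.736 (0.617 to 0.871). Cst3 was higher labelled KO, at 421 CPM against 264, a ratio of 1.60 (1.39 to 1.83).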

How the data were processed

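Per the file headers, the authors made the matrices with Cell Ranger 7.2.0, and the deposited values are whole UMI counts per gene and barcode. Per the submitters' processing notes the build was GRCm39. The extraction protocol in the labels describes bulk RNA, so the capture chemistry was not known. A barcode was kept if it had 200 or more genes and less than 20% of its UMIs from mitochondrial genes. Scrublet's own threshold marked 0.0456% (KO) and 0% (WT), so the highest scores at 0.8% per 1000 barcodes were removed instead, 154 and 633 barcodes. Both libraries were clustered together (scanpy 1.11.5, 2000 variable genes, 30 components, 15 neighbours, Leiden resolution 1, seed 0) without stefin, cystatin, mitochondrial, ribosomal protein and sex genes, into 26 clusters. Each took the best of 23 marker lists with at least 3 detected markers, a reading adopted after the data were seen, and stayed unnamed where leading genes went against it. Intervals are exact Poisson for CPM, exact conditional binomial for ratios and Clopper-Pearson for shares; the ratio script was tested on simulated counts. A count of 0 was read as up to 3 UMIs. Named genes are the members, the genes of 12 lists with at least 50 UMIs in neutrophil-like cells, and the 5 most and least alike over cells or classes, likeness to Cstb over cells being added after values were seen. The members, lists and the comparison of the Ccl3 cluster were chosen with earlier results of these data known. Names and promoters are RefSeq's (GRCm38.p6), matched by symbol for 5 of 6 members; transcript likeness used GENCODE transcripts of that older build.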

Additional observations from a re-analysis of the deposited data

Results flagged for a closer look

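The direction of the difference between libraries differed between neutrophil-like clusters for the stefin A sum, with a KO to WT ratio of 0.901 in the Mmp8 cluster and 1.29 in the intermediate cluster. For Cstdc4 the ratios were 0.540 and 1.24. With 1 library per genotype these differences between clusters were not tested. In the library labelled KO, 5 cells held 59.8% of the Cstdc4 UMIs of the Mmp8 cluster and 57.4% of those of the intermediate cluster.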

How the results depend on the processing

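Of 12 alternatives, the KO to WT ratio of Cstb in neutrophil-like cells was below 1 in 12, at 0.528 to 0.822, and was closest to 1 without the Ccl3 cluster (0.822). The ratio of the stefin A sum was above 1 in 10 and below in 2. It was 1.15 without mitochondrial, ribosomal protein and ribosomal RNA transcripts, 0.960 at equal weight per cluster and 0.853 without the 5 cells richest in stefin A, where Stfa2 turned to 0.812. That last removal took a larger part of the cells labelled KO, so it favoured a lower ratio. The ratio between the 2 largest clusters labelled WT was 0.976, 0.990 and 0.958 for stefin A, and 0.611, 1.16 and 0.366 for Cstb, at resolution 2, re-clustered alone and with at least 1000 UMIs per cell. Both clusters fell into 1 at resolution 0.5, without doublet removal and under 10% mitochondrial UMIs, so these gave no value. In the Ccl3 cluster labelled WT, stefin A was at 0.552 re-clustered alone, 0.864 under 10% mitochondrial UMIs, 0.490 with at least 1000 UMIs and 0.729 in cells with a Csf3r UMI. Cstb there was at 22.3 with cells weighted equally, 12.2 under 10% mitochondrial UMIs, 18.2 without macrophage marker UMIs and 14.4 with a Csf3r UMI; labelled KO it ran from 4.38 to 29.0. Reversals labelled KO concerned Stfa2 between the 2 largest clusters (0.343 without the richest cells, 0.493 with at least 1000 UMIs) and in the Ccl3 cluster (1.14 and 1.02), and Cstdc4 in the Ccl3 cluster under 10% mitochondrial UMIs (1.201). The settings without doublet removal, under 10% mitochondrial UMIs and with at least 1000 UMIs clustered all cells again, so their clusters could hold other cells. The cause of these moves was not tested. Comparisons of the Ccl3 cluster, cells left out by stefin A, Csf3r or macrophage, erythroid or T markers, and the set without the Ccl3 cluster were chosen after seeing the data. No paired analysis was possible because each genotype has 1 library.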
